A study of Homo sapiens with 9 samples.

Results

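Tight junctions, desmosomes and the polarity complexes beside them hold epithelial cells together, and 36 genes that encode their parts were followed here in HuCCT1 cells. HuCCT1 is a human cell line derived from bile duct cancer (cholangiocarcinoma). The genes were taken by symbol from a list that was drawn up with earlier results of these data known, although the rule itself uses no measured value. Of the 36 listed genes, 34 had at least 1 probe set that the platform annotation ties to that gene alone, of 19775 genes in all, and they held 85 of 54613 probe sets. CTNND1 shares its probe sets with a read-through transcript and F11R was not matched to a probe set, so no value is given for either. The arrays compare 5 samples of cells given YAPS127A, a constitutively active form of the transcriptional co-activator YAP1, with 4 samples of cells given an empty vector, and no other treatment is named. The labels do not say whether cells were pools or clones or whether the samples came from separate transfections, so the p-values reflect the spread among these arrays alone, and that spread may be technical. Precision is limited by the number of arrays. In such bulk RNA, fewer cells of a type and less RNA per cell cannot be told apart.

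In a tight junction, claudins and proteins of the occludin family span the membrane and seal the gap between neighbouring cells, while scaffolds such as ZO proteins and cingulin tie them to actin. Desmosomes join cells mechanically: desmogleins and desmocollins reach across the gap, and plakoglobin, plakophilins and desmoplakin link them to keratin filaments. The PAR, Crumbs and Scribble complexes place these junctions at the border between the apical and the basolateral membrane, which in bile duct cells separates bile from tissue.

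YAPS127A cells differed from empty vector cells in 18 of the 34 genes, with 8 higher and 10 lower. The deepest falls were those of the channel-forming claudin gene CLDN2, at 4.23-fold lower, and the desmocollin genes DSC2, at 3.07-fold lower, and DSC3, at 2.02-fold lower. Of the 5 polarity genes among the 34, none was called lower at its brightest probe set and 3 were called higher. With the median difference of neighbouring genes removed, PARD3 was not called and PATJ was called lower. Outside these 34 genes, the polarity kinase gene STK11 was called lower (-0.63), by its brightest probe set only. PARD6A was called higher (+0.46), but not with the neighbours' median removed. The further polarity genes not called at their brightest probe sets included SCRIB (-0.56, adjusted p = 0.0569) and PRKCZ (-0.24, adjusted p = 0.071). They also included PALS1 (+0.14, adjusted p = 0.113) and PRKCI (+0.14, adjusted p = 0.128). EPCAM, CLDN1, TJP1 and DSG2 did not pass the test. Differences here are YAPS127A minus empty vector on the log2 scale, fitted with limma and called at an adjusted p under 0.05 over all probe sets, with each gene represented by its brightest probe set. Across all 19775 genes 14.5% were called higher and 14.2% lower, 28.7% together, against 52.9% of the 34 genes. Among the 12499 genes whose mean exceeded the median of all probe sets in either group, which holds all 34 genes, 41.2% were called. The median difference was -0.01 over the 34 genes and 0.00 over all genes. At least 2-fold changes were called in 3 of the 34 genes, against 3.13% of all genes. Counted by probe set, 19 of 85 were called higher and 18 lower, 43.5% together, against 11.9% and 12% of all probe sets, or 23.9% together. In 17 of the 34 genes the arrays of the groups did not overlap, 7 higher and 10 lower, against 14.5% and 13.8% of all genes, or 28.3% together. The shares of all genes and probe sets include dim ones. For 2-fold changes, probe sets and overlap no share above the median was taken.

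**Figure D1:**
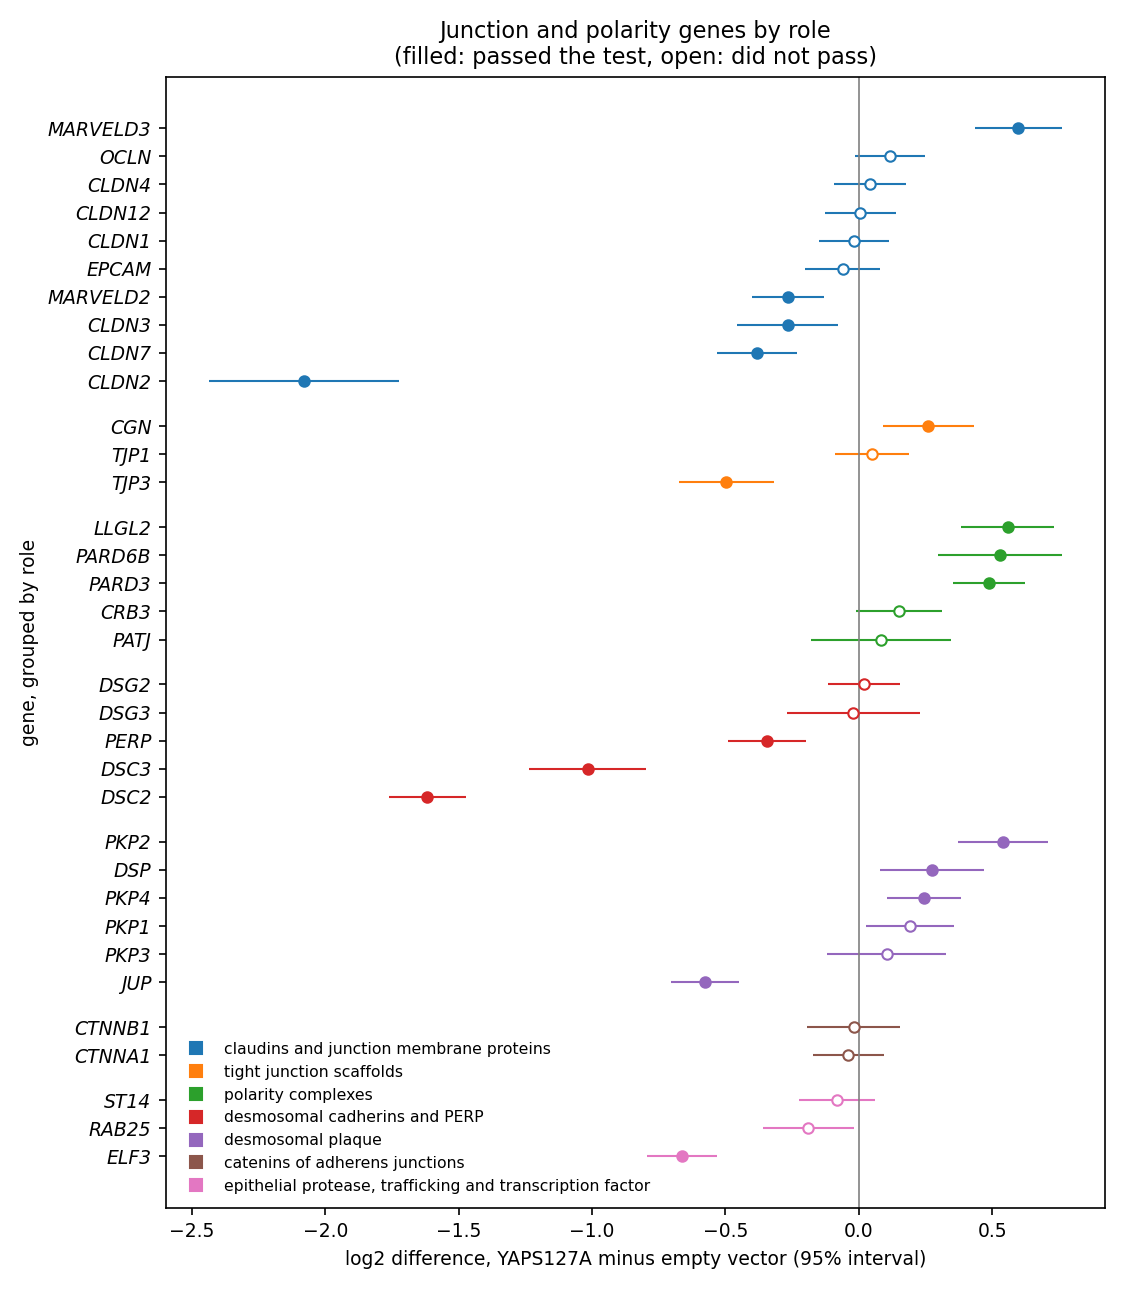
Log2 difference (YAPS127A minus empty vector, x axis) of each of the 34 genes by role, with its 95% confidence interval. Filled points passed the test and open points did not. CLDN2, DSC2 and DSC3 lie furthest to the left, and all 5 polarity genes lie to the right of 0.

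Among the claudins and other junction membrane proteins, with EPCAM counted among them, 1 of 10 genes rose, 4 fell and 5 did not pass. CLDN2 encodes a claudin that forms pores for sodium ions and water and makes an epithelium leakier. It had log2 signals of 6.41, 6.37, 6.77, 6.15 and 6.37 in YAPS127A cells, against 8.36, 8.57, 8.10 and 8.95 in empty vector cells. All YAPS127A arrays lay more than 1 log2 unit below the lowest empty vector array. The difference was -2.08 (SE 0.16, adjusted p = 3.05e-06), read by the only probe set of the gene. CLDN7, a claudin also found along the lateral membrane, had signals of 10.81, 11.07, 10.97, 11.08 and 10.97 in YAPS127A cells, against 11.35, 11.37, 11.32 and 11.41 in empty vector cells. The groups did not overlap, and the difference was -0.38 (SE 0.07, adjusted p = 0.0016). CLDN3, a sealing claudin, averaged 7.27 ± 0.12 (SD, n = 5) in YAPS127A cells, against 7.54 ± 0.15 (SD, n = 4) in empty vector cells. Its difference of -0.27 (SE 0.09, adjusted p = 0.0437) was lost when any of 7 of the 9 arrays was left out, with adjusted p-values of 0.0518 without empty vector replicate 1 to 0.128 without empty vector replicate 2, and its second probe set, at -0.13, did not pass.

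The sealing claudin gene CLDN1, whose loss in people causes a disease of the bile ducts and skin, averaged 12.64 ± 0.02 (SD, n = 5) in YAPS127A cells, against 12.65 ± 0.08 (SD, n = 4) in empty vector cells. Its difference of -0.02 (SE 0.06, adjusted p = 0.872) had a 95% confidence interval of -0.15 to 0.11. CLDN4, at +0.04, and CLDN12, at +0.01, did not pass either. The difference of CLDN2 minus that of CLDN1 was -2.06 (2-sided exact permutation test of the difference between both signals on each array, p = 0.00794, the smallest that 126 splits can give, and the same after adjustment over 3 such comparisons, which were chosen after their values were seen). EPCAM, an adhesion molecule of epithelial cells that binds claudins, had signals of 12.97, 12.91, 13.01, 12.89 and 13.03 in YAPS127A cells, against 12.95, 12.96, 13.13 and 13.05 in empty vector cells. These ranges overlap, and the difference of -0.06 (SE 0.06, adjusted p = 0.575) had an interval of -0.20 to 0.08.

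The MARVEL proteins occludin, tricellulin and MARVELD3 share a 4-helix membrane fold, and their genes did not move together. MARVELD3 rose, with signals of 7.93, 8.18, 7.99, 7.84 and 7.92 in YAPS127A cells, against 7.42, 7.35, 7.32 and 7.39 in empty vector cells. The groups did not overlap (+0.60, SE 0.07, adjusted p = 0.000109), and the mean over its 3 probe sets was +0.37. MARVELD2, which encodes tricellulin and seals the points where 3 cells meet, fell, with a mean of 11.90 ± 0.07 (SD, n = 5) in YAPS127A cells, against 12.17 ± 0.05 (SD, n = 4) in empty vector cells (-0.27, SE 0.06, adjusted p = 0.00756). With the median difference of up to 50 neighbouring genes removed on each array it was at -0.19, just above the threshold. The second probe set of MARVELD2, at -0.36, did not pass (adjusted p = 0.0575). OCLN, which encodes occludin, had signals of 12.67, 12.75, 12.76, 12.79 and 12.88 in YAPS127A cells, against 12.67, 12.64, 12.66 and 12.63 in empty vector cells. At this brightest probe set it did not pass (+0.12, SE 0.06, adjusted p = 0.201), but another of its 4 probe sets was higher by 0.48 (SE 0.06, adjusted p = 9.99e-05), and their mean passed (+0.22, adjusted p = 0.0152).

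The 3 scaffold genes each behaved in their own way. TJP3, which encodes ZO-3, fell, with signals of 6.06, 6.10, 5.78, 6.01 and 6.08 in YAPS127A cells, against 6.36, 6.51, 6.61 and 6.53 in empty vector cells (-0.50, SE 0.08, adjusted p = 0.000819). Its second probe set, at -0.20, did not pass (adjusted p = 0.103). CGN, which encodes cingulin, a link to actin and to regulators of RhoA, averaged 11.84 ± 0.12 (SD, n = 5) in YAPS127A cells, against 11.58 ± 0.09 (SD, n = 4) in empty vector cells (+0.26, SE 0.08, adjusted p = 0.0303). Without empty vector replicate 2, 3 or 4 or YAPS127A replicate 1 or 2 it no longer passed, with adjusted p-values up to 0.0865. The second probe set of CGN, at +0.18, did not pass (adjusted p = 0.143). TJP1, which encodes the main scaffold ZO-1, averaged 13.36 ± 0.06 (SD, n = 5) in YAPS127A cells, against 13.31 ± 0.08 (SD, n = 4) in empty vector cells, a difference of +0.05 (SE 0.06, adjusted p = 0.653) with an interval of -0.09 to 0.19.

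All 5 polarity genes had differences above 0 at their brightest probe set, and 3 of them rose. With the median of the neighbouring genes removed on each array, LLGL2 and PARD6B still passed, while PARD3 was no longer called and PATJ lay below 0. LLGL2, a basolateral partner of the Scribble complex, had signals of 8.58, 8.61, 8.38, 8.68 and 8.65 in YAPS127A cells, against 7.88, 8.15, 8.04 and 8.02 in empty vector cells. The groups did not overlap (+0.56, SE 0.08, adjusted p = 0.000292), but its second probe set was at +0.07 and did not pass (adjusted p = 0.722), and their mean was at +0.31. PARD6B, which brings atypical protein kinase C into the PAR complex, had signals of 10.77, 10.79, 11.20, 10.87 and 11.20 in YAPS127A cells, against 10.34, 10.45, 10.58 and 10.39 in empty vector cells. All YAPS127A arrays lay above the highest of the empty vector arrays (+0.53, SE 0.11, adjusted p = 0.00319), and the mean over its 3 probe sets was +0.34. The dimmer probe sets of PARD6B averaged 4.50 and 4.29 in YAPS127A cells, against 4.21 and 4.08 in empty vector cells. The former was called higher and the latter was not (adjusted p = 0.324). Both lie close to the lower quartile of the arrays, so that mean is not read as a size. PARD3, the scaffold of the same complex, averaged 9.99 ± 0.07 (SD, n = 5) in YAPS127A cells, against 9.50 ± 0.06 (SD, n = 4) in empty vector cells (+0.49, SE 0.06, adjusted p = 0.000132), and all 4 of its probe sets were called higher. The genes around it on chromosome 10 had a median of +0.31, after whose removal PARD3 was at +0.17 (adjusted p = 0.0891). CRB3, the epithelial Crumbs protein, was at +0.15 (adjusted p = 0.182). PATJ, which joins Crumbs to tight junctions, was at +0.08 (adjusted p = 0.695) by its brightest probe set, and another of its 6 probe sets was called higher, by 0.55. A further probe set that was called had means of 3.55 in YAPS127A cells and 3.02 in empty vector cells, under the lower quartile of every array (4.24 to 4.27), and its difference is not read as a size. The mean over all 6, which includes it, was higher by 0.29 (adjusted p = 0.00253). Around PATJ on chromosome 1 the median was +0.50, and after its removal the brightest probe set was at -0.42 (adjusted p = 0.0303).

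**Figure D2:**
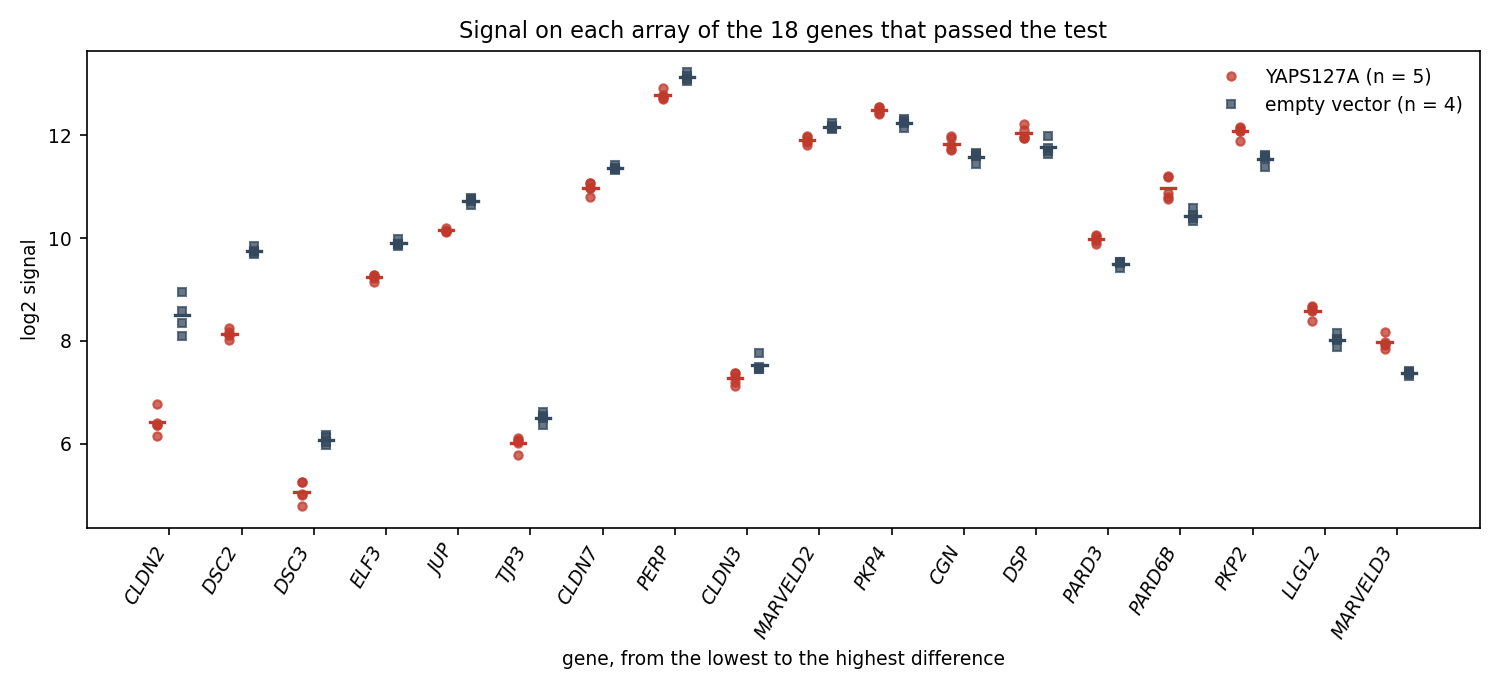
Log2 signal of each array (y axis) for the 18 genes that passed, with YAPS127A arrays (n = 5, circles) left of empty vector arrays (n = 4, squares) and bars at the means. DSP is the gene in which the arrays of the groups overlap; in CLDN2 the highest YAPS127A array is at 6.77 and the lowest empty vector array at 8.10.

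The desmosomal cadherins split by family: both desmocollin genes fell and both desmoglein genes among the 34 did not pass. DSC2, the desmocollin of simple epithelia, had signals of 8.12, 8.02, 8.18, 8.24 and 8.12 in YAPS127A cells, against 9.68, 9.85, 9.75 and 9.73 in empty vector cells. The groups did not overlap, with SDs of 0.083 in YAPS127A cells and 0.071 in empty vector cells, and the difference was -1.62 (SE 0.07, adjusted p = 1.65e-08). All 4 of its probe sets were called lower, at -1.62, -1.67, -0.58 and -0.47, the last 3 with empty vector means of 6.75, 5.15 and 4.59. DSC3, a desmocollin better known from stratified epithelia, had signals of 4.78, 4.99, 5.25, 5.26 and 5.02 in YAPS127A cells, against 5.98, 6.13, 6.03 and 6.17 in empty vector cells. The groups did not overlap (-1.02, SE 0.10, adjusted p = 1.83e-05), and the mean over its 3 probe sets was -0.54. These YAPS127A values are close to the lower quartile of the signals, which lay at 4.24 to 4.27 on the arrays, and the background therefore bears on the size of this fall. The dimmer probe sets of DSC3 were at -0.59, called lower, and -0.03, not called, with empty vector means of 4.80 and 3.48.

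DSG2, the desmoglein of simple epithelia, had signals of 12.68, 12.61, 12.74, 12.62 and 12.67 in YAPS127A cells, against 12.58, 12.63, 12.75 and 12.63 in empty vector cells. The groups overlap, and the difference of +0.02 (SE 0.06, adjusted p = 0.88) had an interval of -0.12 to 0.15. DSG3 averaged 7.11 ± 0.24 (SD, n = 5) in YAPS127A cells, against 7.14 ± 0.08 (SD, n = 4) in empty vector cells, a difference of -0.02 (SE 0.11, adjusted p = 0.933, interval -0.27 to 0.23). The difference of DSC2 minus that of DSG2 was -1.64, and that of DSC3 minus that of DSG3 was -0.996. Exact 2-sided permutation tests on the differences within each array gave p = 0.00794 each, the smallest possible. The pairs were chosen after their values were seen, so these p-values add no support beyond the differences themselves. The desmosomal cadherin genes lie in a single cluster on chromosome 18, where the RefSeq order is DSC3, DSC2, DSC1, DSG1, DSG4, DSG3 and DSG2. DSC1, DSG1 and DSG4, between the desmocollins that fell and the other desmogleins, had means of at most 2.89 in either group, below the lower quartiles of the arrays, and were not called.

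**Figure D3:**
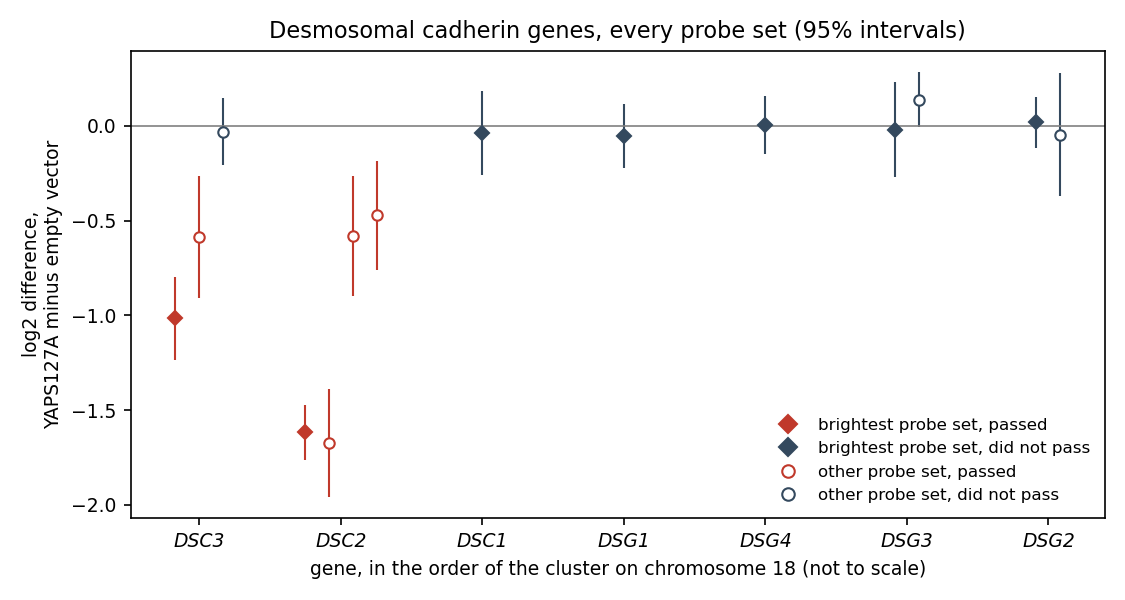
Log2 difference (YAPS127A minus empty vector, y axis) with its 95% confidence interval at every probe set of the desmosomal cadherin genes, in their order on chromosome 18 (x axis, not to scale). Diamonds are the brightest probe sets and circles the others; red marks those called. The 2 genes at the left end, DSC3 and DSC2, fell, with brightest probe sets at -1.02 and -1.62, and DSG3 and DSG2 at the right end lie around 0.

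The promoter windows of these 4 cadherin genes are shown because they sit in the same cluster and differ in response, beside those of CLDN2, the gene with the deepest fall, and CLDN7, whose window holds 5 E-boxes, as many as any of the 39. Each holds 250 bases before and 50 after a RefSeq transcript start, written on the strand of the gene. Capitals mark the E-box CACCTG bound by SNAI and ZEB repressors, or its reverse complement, and the AP-1 site TGANTCA. The windows are those of DSC2 (GRCh38.p14, chr18:31102372-31102671, minus strand), DSC3 (chr18:31042693-31042992, minus strand), DSG2 (chr18:31497927-31498226, plus strand), DSG3 (chr18:31447491-31447790, plus strand), CLDN2 (chrX:106899914-106900213, plus strand) and CLDN7 (chr17:7262429-7262728, minus strand). For DSC2, CLDN2 and CLDN7, which have 2 entries each, the entry with more matches is shown.
DSC2: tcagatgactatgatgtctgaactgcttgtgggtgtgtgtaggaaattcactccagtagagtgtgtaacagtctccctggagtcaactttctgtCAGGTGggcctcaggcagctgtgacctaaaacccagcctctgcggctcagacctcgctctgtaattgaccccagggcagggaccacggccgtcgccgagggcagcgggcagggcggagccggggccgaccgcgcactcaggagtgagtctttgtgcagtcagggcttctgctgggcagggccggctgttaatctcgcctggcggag
DSC3: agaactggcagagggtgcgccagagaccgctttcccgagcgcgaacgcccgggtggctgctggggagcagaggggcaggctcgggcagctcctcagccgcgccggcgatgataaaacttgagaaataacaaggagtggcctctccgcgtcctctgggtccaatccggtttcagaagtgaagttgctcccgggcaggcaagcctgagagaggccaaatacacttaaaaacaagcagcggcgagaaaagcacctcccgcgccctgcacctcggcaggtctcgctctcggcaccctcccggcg
DSG2: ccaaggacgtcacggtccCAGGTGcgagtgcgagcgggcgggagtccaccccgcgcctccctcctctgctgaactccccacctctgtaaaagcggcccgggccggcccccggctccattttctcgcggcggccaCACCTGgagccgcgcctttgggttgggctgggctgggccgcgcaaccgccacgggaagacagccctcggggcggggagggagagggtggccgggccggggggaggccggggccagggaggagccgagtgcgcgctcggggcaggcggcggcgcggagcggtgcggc
DSG3: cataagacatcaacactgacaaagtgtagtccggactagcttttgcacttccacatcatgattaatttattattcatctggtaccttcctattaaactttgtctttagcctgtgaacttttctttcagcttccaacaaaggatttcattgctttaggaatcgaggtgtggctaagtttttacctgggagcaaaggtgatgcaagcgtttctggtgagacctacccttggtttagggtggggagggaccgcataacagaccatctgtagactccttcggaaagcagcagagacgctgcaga
CLDN2: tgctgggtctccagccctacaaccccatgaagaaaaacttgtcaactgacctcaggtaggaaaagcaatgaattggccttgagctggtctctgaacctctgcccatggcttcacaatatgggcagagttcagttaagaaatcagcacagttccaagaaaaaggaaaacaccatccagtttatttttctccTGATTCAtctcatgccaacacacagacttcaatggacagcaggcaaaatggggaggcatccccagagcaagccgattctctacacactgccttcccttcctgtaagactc
CLDN7: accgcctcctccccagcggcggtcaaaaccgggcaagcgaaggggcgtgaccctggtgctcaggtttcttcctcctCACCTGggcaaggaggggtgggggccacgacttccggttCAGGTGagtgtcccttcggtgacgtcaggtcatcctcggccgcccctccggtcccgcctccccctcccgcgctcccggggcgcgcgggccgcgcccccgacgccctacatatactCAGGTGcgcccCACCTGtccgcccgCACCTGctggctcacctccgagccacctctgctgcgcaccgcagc

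DSC2 had 1 E-box, 156 bases before the start, and DSG2 had 2, although DSC2 fell and DSG2 did not pass, while the windows of DSC3 and DSG3 had none. CLDN2 had an AP-1 site 60 bases before the start. RefSeq windows were found for 26 of the 36 genes, 39 windows in all, and windows of the same gene can overlap. An E-box on either strand was present in 14 of these 39 (35.9%), against 20.6% of all 35116 windows, and in at least 1 window of 13 genes. Of those 13 genes 1 was called higher, 6 were called lower and 6 did not pass, and of the 26 genes 3 were called higher, 10 lower and 13 did not pass. The AP-1 site was present in 3 of 39 (7.69%), against 7.71% of all. The core GGAATG of the motif read by TEAD factors, the DNA-binding partners of YAP1, was in none of the 39 windows on either strand, against 14% of all, which says only that these letters are not in these windows. A match describes the letters and is not evidence of binding.

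PERP, a membrane protein of desmosomes and a p53 target, is the remaining gene of this group. It had signals of 12.79, 12.73, 12.92, 12.72 and 12.76 in YAPS127A cells, against 13.09, 13.05, 13.22 and 13.15 in empty vector cells. All YAPS127A arrays were the lower ones (-0.35, SE 0.07, adjusted p = 0.00249), and 3 of its 5 probe sets were called lower. Its neighbours on chromosome 6 had a median difference of -0.40, and with that median removed on each array PERP was at +0.05 (adjusted p = 0.61).

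In the desmosomal plaque 3 of 6 genes rose and 1 fell. JUP encodes plakoglobin, a relative of beta-catenin that binds desmosomal and classical cadherins alike. It had signals of 10.13, 10.20, 10.14, 10.14 and 10.13 in YAPS127A cells, against 10.79, 10.64, 10.72 and 10.76 in empty vector cells. The groups were more than 0.4 log2 units apart, and the difference was -0.58 (SE 0.06, adjusted p = 2.12e-05). PKP2, the plakophilin of simple epithelia and heart, had signals of 12.08, 11.90, 12.08, 12.17 and 12.15 in YAPS127A cells, against 11.61, 11.60, 11.38 and 11.56 in empty vector cells. It did not overlap between groups (+0.54, SE 0.08, adjusted p = 0.000292). The second probe set of PKP2, at +0.35, did not pass (adjusted p = 0.179). PKP4, a p120-related protein of cell borders, averaged 12.49 ± 0.07 (SD, n = 5) in YAPS127A cells, against 12.24 ± 0.07 (SD, n = 4) in empty vector cells (+0.24, SE 0.06, adjusted p = 0.0139), and 4 of its 5 probe sets were called higher, by up to 0.79, with a mean over all 5 of +0.44.

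DSP, which encodes desmoplakin, had signals of 12.11, 11.94, 12.22, 11.94 and 11.97 in YAPS127A cells, against 11.69, 11.63, 11.98 and 11.75 in empty vector cells. Empty vector replicate 3, at 11.98, lay above 3 of the YAPS127A arrays. The difference of +0.27 (SE 0.09) passed narrowly (adjusted p = 0.0434) and was lost when any of 7 of the 9 arrays was left out, with adjusted p-values of 0.0501 without YAPS127A replicate 4 to 0.128 without empty vector replicate 2. With the neighbours' median removed it was at +0.22 and was not called (adjusted p = 0.0962). PKP1, better known from stratified epithelia (+0.19, adjusted p = 0.0931), and PKP3 (+0.10, adjusted p = 0.542) did not pass.

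The catenins that tie classical cadherins to actin were not called. CTNNA1 was at -0.04 (adjusted p = 0.708, interval -0.17 to 0.09) and CTNNB1 at -0.02 (adjusted p = 0.902, interval -0.19 to 0.15), and none of their 8 probe sets passed. Of the last 3 genes ELF3, an epithelial transcription factor of the ETS family that is often mutated in biliary cancers, fell. It had signals of 9.24, 9.29, 9.15, 9.23 and 9.28 in YAPS127A cells, against 9.84, 9.89, 9.97 and 9.88 in empty vector cells. No array of either group reached the range of the other (-0.66, SE 0.06, adjusted p = 8.79e-06), and all 3 probe sets were called lower. The membrane protease gene ST14 (matriptase) was at -0.08 (adjusted p = 0.435), and RAB25, a GTPase of apical recycling, was at -0.19 (adjusted p = 0.109). At their brightest probe sets, all 16 genes that did not pass had 95% confidence intervals within 0.5 log2 units of 0, the widest reaching -0.36 and 0.36. This does not hold for all their probe sets. In OCLN and PATJ a dimmer probe set was called higher, with intervals of 0.35 to 0.61 and 0.31 to 0.79. A miss of the threshold does not show that they are equal.

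Several of these genes lie in stretches of chromosome that moved together, and their neighbours are therefore given beside them. In 7 of the 34 genes the median difference of up to 50 neighbouring genes lay beyond 0.2 log2 units (20.6%, against 22.4% of all genes with a position). The neighbours of MARVELD3 on chromosome 16 had a median of +0.38, after whose removal its brightest probe set was at +0.21 (adjusted p = 0.0393). The dimmer probe sets of MARVELD3, at +0.28 and +0.22 before removal, lay below that median. For ELF3, whose neighbours lay at -0.21, the difference was then -0.46 (adjusted p = 0.000304). The neighbours of CLDN2, DSC2 and DSC3 had medians of +0.04, 0.00 and -0.01, and these genes remained at -2.12, -1.61 and -1.01. JUP (-0.48), PKP2 (+0.56), PARD6B (+0.58) and LLGL2 (+0.63) also passed with the neighbours' median removed. CGN, whose neighbours lay at -0.20, was then at +0.46. Besides PERP and PARD3, MARVELD2 and DSP lost the call, and OCLN (+0.21, adjusted p = 0.0291), CRB3 (+0.26, adjusted p = 0.0166) and PKP1 (+0.46, adjusted p = 0.00122) gained it as higher and PATJ as lower. In that fit 9 of the 34 genes were called higher and 9 lower, against 14.8% of all genes in each direction.

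**Figure D4:**
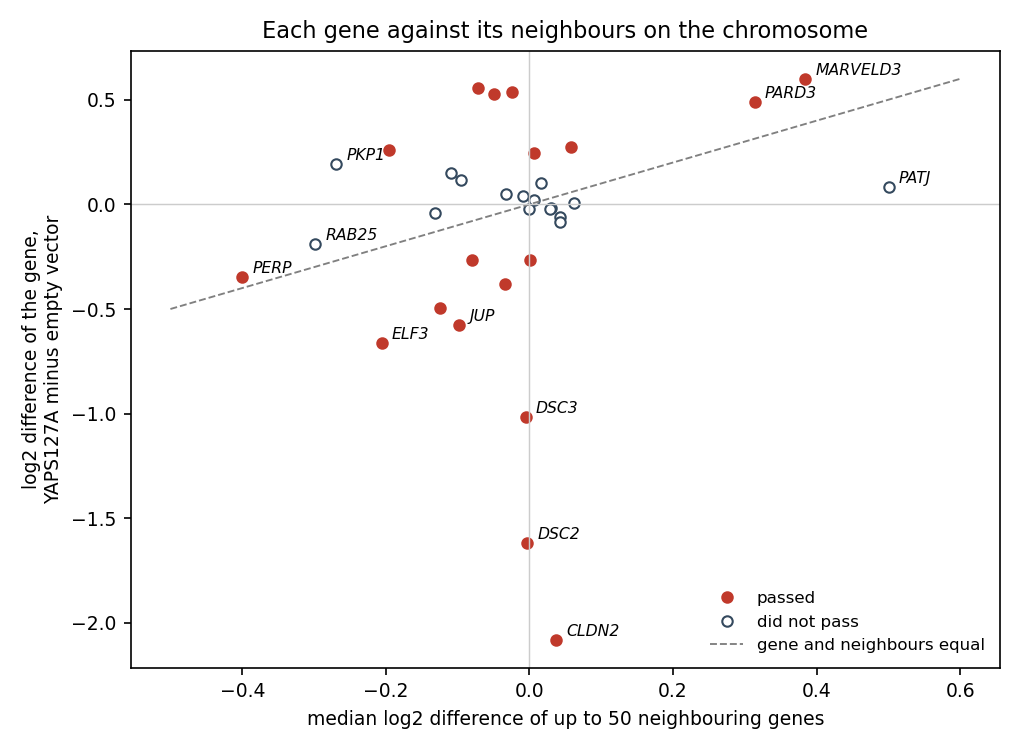
Log2 difference of each of the 34 genes (y axis) against the median log2 difference of its neighbouring genes (x axis), both YAPS127A minus empty vector. Filled points passed the test, and the dashed line marks equal values. PERP (-0.35, neighbours -0.40) lies near the line, while CLDN2, DSC2 and DSC3 lie far below it with neighbours near 0.

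Of 58 further genes of junctions and polarity, 54 had a named probe set, and 9 were called higher and 6 lower, 27.8% together, against 28.7% of all genes. Their median difference was 0.00. PPL, which encodes periplakin, another link of desmosomes to keratin, was higher by 1.15 (SE 0.12, adjusted p = 2.46e-05), with neighbours higher by 0.36. PLEKHA7, a protein of the apical adherens junction, averaged 8.95 ± 0.15 (SD, n = 5) in YAPS127A cells, against 7.93 ± 0.17 (SD, n = 4) in empty vector cells (+1.02, SE 0.10, adjusted p = 1.64e-05). CLDN23, a further claudin, was higher by 0.75 (adjusted p = 1.74e-05). Its 3 probe sets were all called higher. EHF, a relative of ELF3 in the ETS family, averaged 12.45 ± 0.05 (SD, n = 5) in YAPS127A cells, against 13.16 ± 0.05 (SD, n = 4) in empty vector cells (-0.72, SE 0.06, adjusted p = 3.57e-06). Its neighbours lay at -0.37, and with their median removed this brightest probe set of EHF was at -0.34. All 6 of its probe sets were called lower, with a mean of -1.30, and the dimmer ones were at -1.36 to -1.49 before removal. STK11, the polarity kinase LKB1, was at -0.63 (adjusted p = 3.21e-05) by its brightest probe set, while the other 2, at -0.12 and -0.07, did not pass, and the mean over the 3 was -0.27.

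CDH1, which encodes E-cadherin, averaged 13.24 ± 0.06 (SD, n = 5) in YAPS127A cells, against 13.00 ± 0.02 (SD, n = 4) in empty vector cells. It was called higher (+0.24, SE 0.06, adjusted p = 0.00882), but the median of its neighbours on chromosome 16 was +0.39, and it was at -0.15 (adjusted p = 0.152) once that was subtracted. The calls of AFDN (-0.45), which encodes afadin, PARD6A (+0.46) and the splicing factor gene ESRP1 (-0.34), whose neighbours lay at -0.37, +0.32 and -0.24, were likewise lost in that fit. AFDN also had probe sets called in both directions, and their mean did not pass (-0.13, adjusted p = 0.0967). The mean over the 2 probe sets of CDH1 was +0.39 (adjusted p = 0.0346).

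The arrays had median log2 signals of 5.95 to 5.97. The 3 probe sets of YAP1 were at +0.15, +0.16 and +0.03 and did not pass (adjusted p = 0.121, 0.171 and 0.803), and whether they can read the construct is unknown, so they do not check the labels. The bile duct keratin genes KRT19 and KRT7 did not pass. Their means were 14.21 and 13.49 in YAPS127A cells, against 14.19 and 13.60 in empty vector cells. SOX9 (-0.25) and SPP1 (-1.37) fell. SPP1 averaged 4.41 in YAPS127A cells and 5.77 in empty vector cells, both below the median of all probe sets (5.96). The background therefore bears on the size of its fall. Of 4 leukocyte markers LYZ (-2.25) and CD14 (-0.45) fell, and PTPRC had means of 4.03 in YAPS127A cells and 4.05 in empty vector cells, below the lower quartiles of the arrays. The log2 of the summed leukocyte signal was 6.74 to 6.90 in YAPS127A cells and 7.97 to 8.22 in empty vector cells. Of 5 fibroblast markers LUM rose (+1.45) and COL1A1 fell (-0.70), with a log2 summed signal of 9.24 to 9.73 in YAPS127A cells and 8.99 to 9.18 in empty vector cells, and none of 4 hepatocyte or 3 endothelial markers was called. The samples are of a cell line, and these sums are not read as amounts of other cell types. The part of these markers in the junction results was not tested. The gap between the actin 3' and 5' control probe sets, a sign of RNA quality, was 0.89 to 1.58 in YAPS127A samples and 0.98 to 1.69 in empty vector samples, and with it as a covariate CLDN3 lost its call (-0.26, adjusted p = 0.0712) and the other 17 genes passed.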

How the data were processed

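Total RNA of HuCCT1 cells was amplified and hybridised with a biotin label to single-colour arrays, per the labels' protocols. The deposited values are read as log2 signals per probe set because they range from 1.62 to 15.0. No header gives their unit. The authors' background correction, summarisation and normalization were not given in the sources used here. No further scaling was applied. There were 0 columns of other samples.

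Of the probe sets, 62 controls were left out and 54613 tested. The platform annotation gives 1 gene to 41091 of these, several genes to 1801 and no gene to 11721. Gene IDs matched 41037 to RefSeq (GRCh38.p14), whose symbols were used. Each gene was represented by its brightest probe set. The brightest probe sets of CLDN3, PERP and CTNNA1 are of the platform's _x_at class, which may also read other transcripts.

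Groups, 5 YAPS127A and 4 empty vector arrays, were compared with limma 3.58.1 under R 4.3.3 (lmFit, eBayes, no covariate). The Benjamini-Hochberg adjustment ran over all probe sets, and 0.05 was the threshold. Errors are SE for differences and SD for levels. Neighbours were up to 50 genes with a mean above 5.96, the median of all probe sets, in RefSeq gene order; this order gives no array coordinates. Python 3.11.15 and matplotlib 3.10.9 made the figures.

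The genes, lists and tests were chosen with earlier results of these data known. Array values are printed for genes that passed, with a mean in the higher group above 5.96, and for EPCAM, JUP, CLDN1, TJP1, OCLN and DSP, some of them as mean and SD; of the further genes CDH1 and the 8 with the lowest p-values among those called were named. Levels of DSG2 and DSG3 and the comparisons of DSC2 with DSG2, DSC3 with DSG3 and CLDN2 with CLDN1 were added after their values were seen, as were LYZ, CD14, LUM and COL1A1 from the marker lists. SCRIB, PRKCZ, PALS1 and PRKCI, which were not called, were also named after their values were seen. In simulated data for the same comparison, 50 of 54613 probe sets were changed at each size. There limma found 4% of those changed by 0.25 log2 units, 40% by 0.5, 88% by 1 and 100% by 2. It made 3 false calls. In the real data 23.9% of all probe sets were called, which makes the adjusted threshold less strict there. The shares found in the simulation therefore do not give the recovery in the real data. Same-numbered arrays did not deviate together (correlations of -0.25 to 0.04), so the numbers were not used as pairs. A pseudocount was not needed on the log scale.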

Additional observations from a re-analysis of the deposited data

Results flagged for a closer look

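In 3 of the 68 groups tested (34 genes in each of 2 groups of arrays), 1 array stood apart from the others of its group by a gap that exceeded Dixon's 95% critical value. About 1 in 20 groups is marked in this way by chance. CLDN3 in empty vector replicate 2 was at 7.77, above the next array at 7.49. JUP in YAPS127A replicate 2 was at 10.20, above the next at 10.14. ST14 in empty vector replicate 3 was at 10.71, below the next at 10.86.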

How the results depend on the processing

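The counts of 8 genes higher and 10 lower among the 34 stayed within 1.5 times under every alternative run: quantile normalization, centring on the median, dim probe sets left out, trend and robust eBayes, the mean over probe sets (10 higher and 10 lower), the actin gap as a covariate (8 and 9), the neighbours' median removed (9 and 9) and each array left out in turn (6 to 7 higher and 9 to 10 lower). Of the 18 genes called, 15 kept the call in all 9 fits that left out an array; CGN, CLDN3 and DSP did not. Among the 54 further genes the counts were 8 to 10 higher and 4 to 7 lower in those fits. With the replicate number as a block, 7 genes were called higher and 8 lower, and CLDN3 (-0.23), MARVELD2 (-0.24) and PKP4 (+0.26) were no longer called; the numbers do not pair the samples. With the neighbours' median removed PATJ (-0.42), PERP (0.054) and CDH1 (-0.15) changed sign, as did CLDN12 (-0.06), CTNNA1 (+0.09) and RAB25 (+0.11), which passed in neither fit. That subtraction assumes that a gene follows its neighbours. PKP1 was called with the neighbours' median removed (+0.46) and without empty vector replicate 4 (+0.25). With trend and robust eBayes, 19 probe sets of the 34 genes were called higher and 19 lower, against 19 and 18. Small differences in dim probe sets are limited by signal over background, and the cause of each lost call was not tested.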
